A study of Homo sapiens with 9 samples.

Results

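SF3B1 binding sites were examined in 10 genes that encode the cleavage and polyadenylation machinery: CPSF1, CPSF2, CPSF3, CPSF4, CSTF1, CSTF2, CSTF3, NUDT21, CPSF6 and PCF11. A site was assigned to a gene when its centre lay within the RefSeq span of the gene on GRCh38 and on the strand of the gene. These genes held 187 of the 96852 sites in the list, or 0.193%. The list comes from iCLIP of K562, an established human leukaemia cell line; in iCLIP, ultraviolet light joins a protein to the RNA it touches, the protein is immunoprecipitated, and sequencing locates the crosslinked nucleotides. The series holds 9 libraries from K562 cells crosslinked at 254 nm with 400 mJ/cm2. The labels attach the list to 3 SF3B1 libraries of genotype SF3B1 wt/wt. The other libraries, 2 of SF3B1 from SF3B1 K700E/wt cells and 4 of U2AF2 from SF3B1 wt/wt cells, were not analysed here. Both SF3B1 lines came from Horizon Discovery and the cells for U2AF2 from ATCC.

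The list gives positions only. Each site was 5 nt wide, the score was 0 in every row, and the replicates were merged, so library depth is unknown and the spread between replicates is not known either. Its header speaks of sites found by all replicates of either condition, and therefore no site is assigned to a genotype here. Counts of sites were not adjusted for how much RNA a gene makes, and fewer cells with an RNA and less RNA per cell cannot be told apart. The labels describe the source as lymphoid, whereas K562 is known as a myeloid line with erythroid features. Of 12 genes that mark erythroid cells or K562, 7 held sites (58.3%, 95% Wilson interval 32.0% to 80.7%), against 37.9% of all protein-coding genes, which lies within that interval. They were TFRC with 121 sites, ABL1 with 25, BCR with 24, TAL1 with 17, LMO2 with 9, GATA1 with 6 and EPOR with 3, while KLF1 and the globin genes HBG1, HBG2, HBE1 and HBZ held 0. Of 7 B lymphoid marker genes (MS4A1, CD79A, CD79B, CD22, PAX5, EBF1 and CD5), none held a site, and the interval for 0 of 7 reaches 35.4%. For marker genes whose strand was not known, equal numbers of sites on both strands would also be counted as 0. The marker counts were not used to settle the label.

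The 3′ end of nearly every messenger RNA is made by cutting the transcript and adding a poly(A) tail. The cleavage and polyadenylation specificity factor (CPSF) recognises the poly(A) signal and cuts the RNA, the cleavage stimulation factor (CstF) binds the downstream element, and cleavage factors I and II (CFIm and CFIIm) guide the choice of the site and the termination of transcription. SF3B1 is part of the U2 snRNP, the splicing particle that pairs with the branch point ahead of a 3′ splice site, so the sites below are contacts of the splicing machinery with the transcripts of these genes and not contacts of the factors they encode. CSTF3 and PCF11 are known for poly(A) sites inside introns that give shortened transcripts. The gene table used here has no exons, and the sites were not placed relative to exons, introns or poly(A) sites.

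A sequence could be read for 1 of the 187 sites, the most upstream site of CSTF3, because a RefSeq promoter window of the divergent gene CSTF3-DT covers it. It is shown because this gene was the only member with sites at its very start. The 30 bases on the minus strand of GRCh38.p14 at chr11:33161407-33161436 are printed 5′ to 3′ as DNA, with the 5 bases of the binding site in capitals.
CSTF3: gctcagctgggcagggggtaaCTTTActga
The site had T at its central base and on both sides of it. In the 427 sites of the whole list that lie in such windows, T stood at the preceding base in 53.6%, at the central base in 75.4% and at the following base in 78.0%, against 24.6% of all bases of the windows concerned. Crosslinking by ultraviolet light is known to favour uridine. No sequence was read for the other 186 member sites.

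All 10 genes held sites, against 37.9% of 20050 protein-coding genes. The members and the lists below were chosen with earlier results of these data known, so such contrasts are descriptive only. The 20050 genes were not filtered by expression in K562. At least 5 sites were found in 9 members (23.1% of protein-coding genes) and at least 10 in 7 members (14.8% of protein-coding genes). The number ran from 3 in CSTF1 to 51 in CPSF6, with a median of 18.5 against 7 in all protein-coding genes with a site. CPSF6 alone held 27.3% of the member sites, and 136 remained without it. Per kb of gene, 3 members reached at least 1 site, CPSF4 with 1.57, CPSF6 with 1.47 and CPSF1 with 1.18, as did 12.0% of the protein-coding genes with a site. The median density of the members was 0.466 sites per kb against 0.199 in all protein-coding genes with a site, and 9 of 10 members were above that value, the exception being CPSF2. Without a spread between replicates, the order of the members by number or density was not tested. Number and length of the gene had a Spearman rho of 0.25 over the 10 members, which share 1 list, and 0.23 over the 7608 genes with a site.

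**Figure D1:**
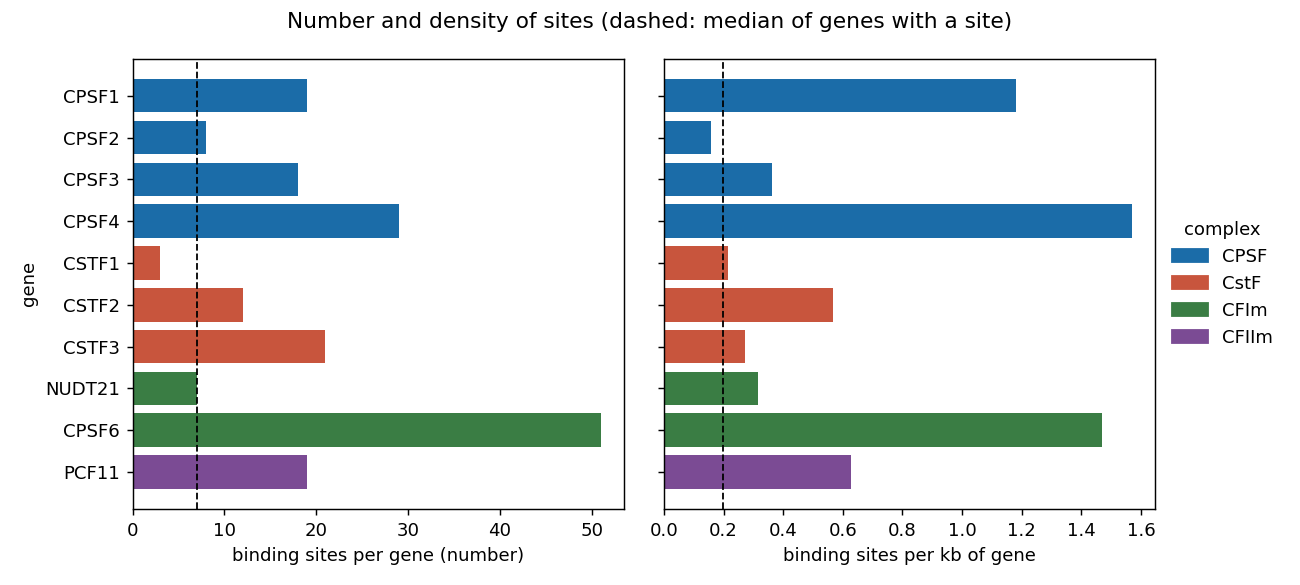
Number of SF3B1 sites (left) and sites per kb of RefSeq gene span (right) in each gene, as bars coloured by the complex of the protein; dashed lines are the medians of protein-coding genes with a site, 7 sites and 0.199 sites per kb. CPSF6 had the most sites, 51, and CPSF4 the highest density, 1.57 per kb.

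Strand was given by the promoter table for 9 of the 10 genes and was taken from the sites for CPSF1. Of the 20050 protein-coding genes, 15843 had a tabled strand. The others took the strand with more sites, which can belong to an overlapping gene, and they are included in the background values. Within the spans of those 9 genes, 168 sites lay on the tabled strand and 0 on the other, and a count of 0 among 168 allows a share of up to 1.79%, counting error only. Over all protein-coding genes with a tabled strand, 97.9% of sites lay on it.

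The 4 CPSF genes held 74 sites, unevenly placed along the genes. CPSF1 encodes the large subunit that holds the complex together. It spans chr8:144393231-144409335 on the minus strand, 16.1 kb, and had 19 sites. The first 2 sites lay 6299 and 6331 nt from the gene start, and 16 of the 19 fell between 11108 and 15489 nt, so that 84.2% of the sites took up 27.2% of the gene. The sites were spread as 15 clusters when neighbours at most 60 nt apart were linked, and no cluster held more than 2 sites. CPSF1 overlaps ADCK5, but no site of CPSF1 lay within the span of that gene.

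CPSF4 encodes the zinc finger subunit that binds RNA at the poly(A) signal. It spans chr7:99438943-99457373 on the plus strand, 18.4 kb, and had 29 sites, more than in 88.9% of the genes with a site. Like CPSF1, it held most of its sites in its second part, with 24 of 29 beyond the midpoint. The densest 1 kb held 8 sites, between 14810 and 15227 nt from the start. Its largest cluster had 5 sites within 53 nt, at chr7:99452283-99452340. All 29 sites also lay inside the span of ATP5MF-PTCD1, a readthrough gene, and leaving such sites out reduced the member total to 158. The promoter table places the start of PTCD1 on the minus strand, opposite to these sites.

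CPSF3, the endonuclease that cuts the RNA, and CPSF2, its related partner without the catalytic activity, are of nearly equal length and differed in number of sites. CPSF3 spans chr2:9423654-9473101 on the plus strand, 49.4 kb, with 18 sites. CPSF2 spans chr14:92121969-92172145 on the plus strand, 50.2 kb, with 8 sites, the lowest density of the members at 0.159 per kb. In CPSF3, 12 sites lay in the first part of the gene up to 18111 nt, and then 17720 nt passed without a site, 35.8% of the gene. The last 4 sites formed 2 pairs close to the end, at 47633 and 47642 nt and at 49208 and 49217 nt, the last one 230 nt before the RefSeq end. In CPSF2 the sites lay at 3955, 13349, 20982, 21018, 32333, 34467, 34503 and 39627 nt, and none was in the last 10549 nt. They included 2 pairs, each with 36 nt between the centres. The difference between the 2 genes is given without a test, since it has no replicate check.

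The 3 CstF genes held 36 sites. CSTF1, a WD repeat subunit, spans chr20:56392379-56406362 on the plus strand, 14.0 kb, and had the fewest sites of the members. Its 3 sites made a single cluster at 3090, 3098 and 3132 nt from the start, chr20:56395467-56395513. The other 10851 nt downstream of it held 0 sites.

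CSTF2, the subunit that binds the downstream element through its RNA recognition motif, spans chrX:100820391-100841520 on the plus strand, 21.1 kb, and had 12 sites. Of these, 9 formed 3 clusters of the same shape, at 3677, 3685 and 3716 nt, at 7587, 7595 and 7624 nt, and at 17789, 17796 and 17832 nt. The others stood alone at 11075, 16889 and 17691 nt. The share of sites with a partner 25 to 45 nt away was 75.0% (95% Wilson interval 46.8% to 91.1%, counting error only).

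CSTF3, the scaffold that joins the other CstF subunits, spans chr11:33084584-33161480 on the minus strand and is the longest member, 76.9 kb, with 21 sites. It was the only member with a site within 100 nt of its start, which 1.35% of the protein-coding genes with a site had. It had 4 such sites, at 67, 86, 93 and 100 nt, the first of them being the site printed above, and without CSTF3 the members had 0. The next site followed at 19651 nt. From there to 19989 nt lay 9 sites, 42.9% of the total, including the largest cluster of the gene, 5 sites at chr11:33141772-33141831. A stretch of 25955 nt without a site, from 27088 to 53043 nt, was the longest in any member.

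**Figure D2:**
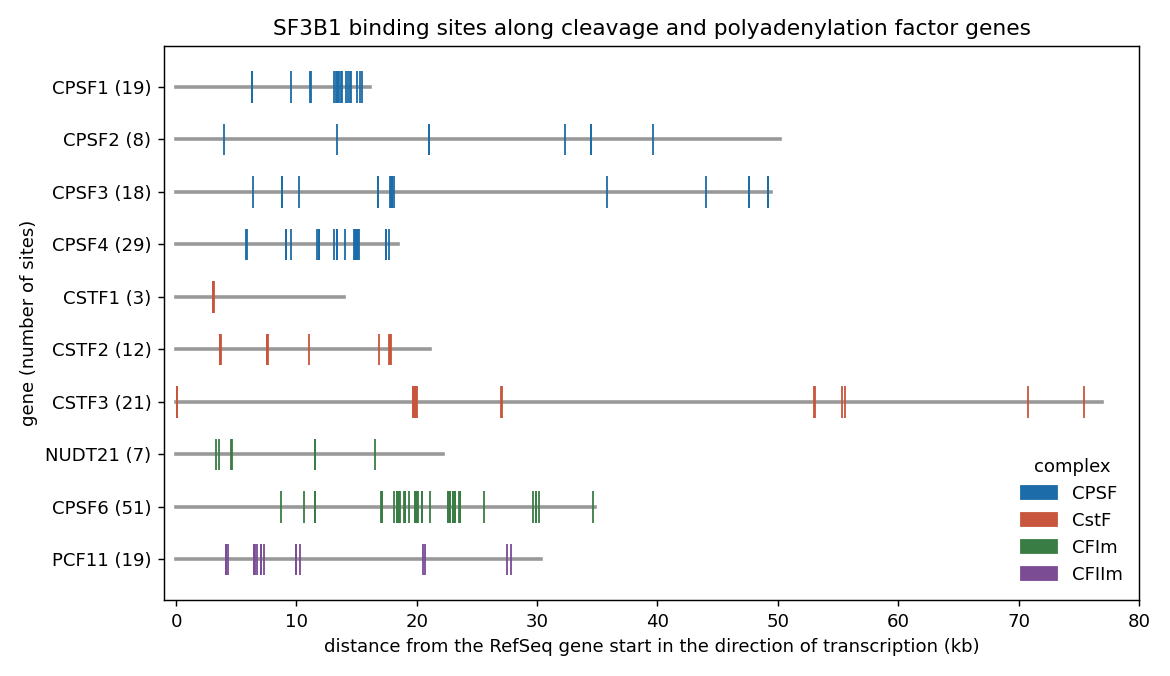
Positions of the 187 sites (vertical ticks) along each gene (grey line, RefSeq span), in kb from the gene start in the direction of transcription; colours mark the complex and the number of sites is in brackets. CPSF1, CPSF4 and CPSF6 carried most sites beyond the midpoint, CSTF3 had 4 sites at its start, and CSTF1 had all 3 sites in a single place.

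The 2 CFIm genes held 58 sites, nearly all of them in CPSF6. NUDT21 encodes the small subunit that binds UGUA elements. It spans chr16:56429133-56451332 on the minus strand, 22.2 kb, and had 7 sites, which equals the median of genes with a site. They lay at 3287, 3579, 4595, 4633, 11536, 11573 and 16490 nt from the start, so that 4 of the 7 belonged to 2 pairs with 38 and 37 nt between the centres. No site lay in the last 5709 nt.

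CPSF6, the large CFIm subunit with an RNA recognition motif and an arginine- and serine-rich tail, spans chr12:69239569-69274358 on the plus strand, 34.8 kb. It had 51 sites, more than in 96.6% of the genes with a site. The sites concentrated in the middle of the gene. Between 17056 and 25563 nt lay 41 sites, 80.4% of the total on 24.5% of the gene, while the first 8750 nt held none. The densest 1 kb held 14 sites, between 22599 and 23574 nt. That was 27.5% of its sites, against a median of 35.7% in protein-coding genes with at least 5 sites. These genes were not matched to CPSF6 in number of sites or length, on which this share depends. The sites formed 25 clusters, of which 11 were single sites, and the largest had 5 sites at chr12:69256623-69256693. The last site was 117 nt before the RefSeq end, the closest to an end among the members.

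PCF11, the CFIIm subunit that binds the tail of RNA polymerase II and acts in termination, spans chr11:83157131-83187451 on the plus strand, 30.3 kb, and had 19 sites. In contrast to CPSF6, 15 of them lay in the first part of the gene, between 4146 and 10266 nt. The densest 1 kb, from 6495 to 7302 nt, held 9 sites, 47.4% of the total. After 10266 nt followed 10260 nt without a site, and the last 4 sites were at 20526, 20704, 27507 and 27832 nt. Of its sites, 57.9% had a partner 25 to 45 nt away (95% Wilson interval 36.3% to 76.9%).

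Across the members, 76 sites lay before the midpoint of a gene and 111 beyond it, and without CPSF6 the numbers were 66 and 70. By gene, CPSF1, CPSF4 and CPSF6 had more sites beyond the midpoint, CPSF2 and CSTF2 had equal numbers, and CPSF3, CSTF1, CSTF3, NUDT21 and PCF11 had more before it. Among the 9 members with at least 5 sites, only 3 thus had more beyond the midpoint, whereas 66.2% of the 4630 protein-coding genes with as many sites did. This difference was not tested. The last 10% of the gene held 9.63% of the member sites (95% Wilson interval 6.18% to 14.7%) against 13.5% of the sites in all protein-coding genes, which lies within that interval. The first 10% held 2.67% (1.15% to 6.11%) against 4.63%. Sites of a gene are not independent, so these intervals are too narrow for a comparison between genes. When genes were divided into 10 equal bins, the members had the most sites in bin 7 with 15.0%, bin 9 with 14.4% and bin 3 with 13.9%, whereas the share in all protein-coding genes rose from 4.63% in bin 1 to 13.7% in bin 9. The order of the bins rests on CPSF6, without which bin 7 held 8.82% of the member sites, bin 9 held 16.9% and bin 3 held 18.4%. Bin 3 rests on few genes as well, since CSTF3 and PCF11 held 9 each of its 26 member sites.

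**Figure D3:**
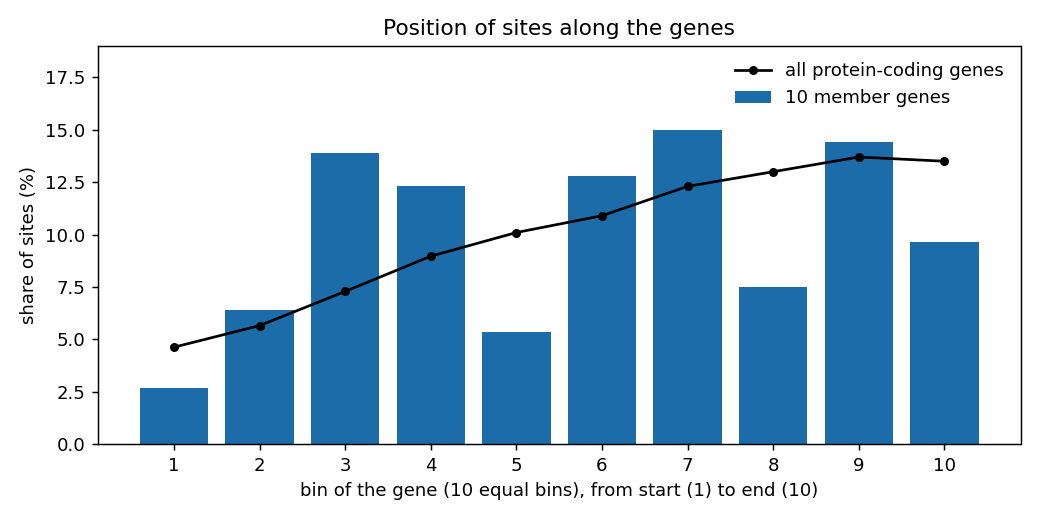
Share of sites (%) in 10 equal bins of the gene from start (1) to end (10), for the members (bars, 187 sites) and for all protein-coding genes (points joined by a line). The members had 13.9% of their sites in bin 3 against 7.29% in all protein-coding genes, and 5.35% in bin 5 against 10.1%. These bins were picked after seeing the data, and CSTF3 and PCF11 held 9 each of the 26 member sites in bin 3.

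The first site of a member lay at a median of 4050 nt from the gene start, with 67 nt in CSTF3 and 8750 nt in CPSF6 as the extremes. In all protein-coding genes with a site the median was 9414 nt. The last site was at a median of 1966 nt from the RefSeq end in the members and 3944 nt in the genes with a site. These distances depend on the length of the gene and on the outermost RefSeq ends, which may not be those used in K562 cells. In the 9 members with at least 5 sites, the densest 1 kb held a median of 28.6% of the sites. The median was 35.7% in the 4630 protein-coding genes with as many sites. The widest stretch between neighbouring sites took a median of 27.5% of the gene in these members, against 20.9%. Both measures depend on number of sites and length, for which the genes were not matched, and the differences were not tested.

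The distances between neighbouring sites of the members were counted in set ranges. The paired class of 25 to 45 nt was known from earlier results of the same list, so its presence is a description. Of 177 distances between neighbours, 21.5% were 5 to 12 nt (95% Wilson interval 16.1% to 28.1%), against 17.2% in all protein-coding genes. A further 13.6% were 25 to 45 nt (9.28% to 19.4%), against 14.1%, and both background shares lie within the intervals. Distances of 200 nt or more made up 40.1%, against 45.7%. The 24 distances of the paired class ran from 25 to 39 nt. None of the 177 was between 40 and 54 nt, a range chosen because it was empty. In all protein-coding genes 4.30% of the distances fell in it, and nothing is read from the difference.

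**Figure D4:**
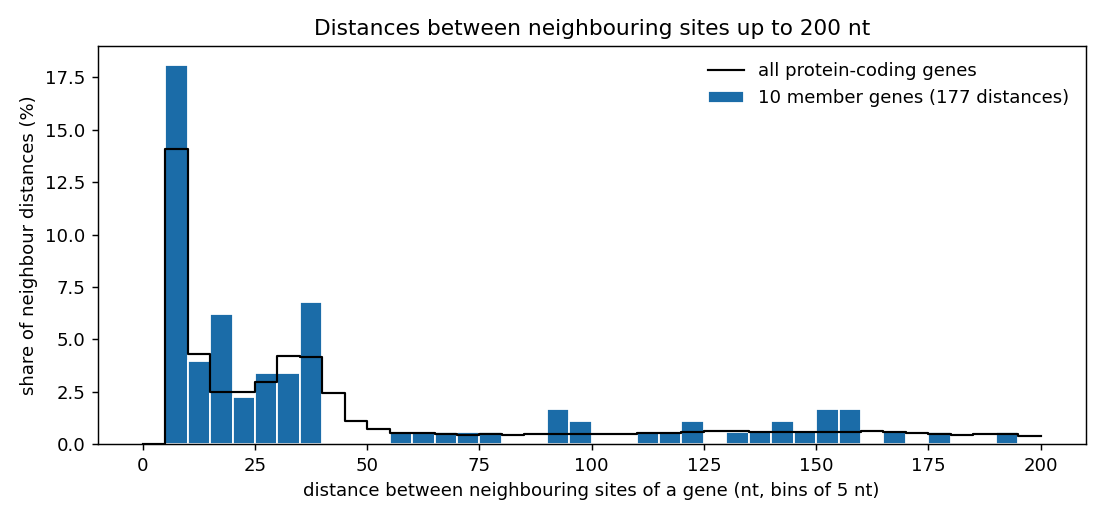
Share of distances between neighbouring sites of a gene in bins of 5 nt up to 200 nt, for the members (bars) and all protein-coding genes (black line). In the members, 18.1% of the distances were 5 to 9 nt, 6.78% were 35 to 39 nt, and none was between 40 and 54 nt.

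Every member had at least 1 site with a partner 25 to 45 nt away, as did 70.2% of protein-coding genes that held 2 sites or more. This share of genes depends on the number of sites per gene, which was higher in the members and was not matched. In all, 80 of the 187 sites had such a partner, 42.8% (95% Wilson interval 35.9% to 49.9%), against 36.5% of the sites in all protein-coding genes, which lies within that interval. Both sites of a pair are counted and so are not independent. The intervals for sites with a partner, here, in CSTF2, in PCF11 and in the lists below, are therefore too narrow. The share was lowest in CPSF3 with 16.7% and, among the members with at least 5 sites, highest in CSTF2 with 75.0%. When sites within 60 nt of a neighbour were joined, 107 clusters resulted, of which 59 were single sites, 55.1% against 63.2% in all protein-coding genes. Clusters of 5 sites, the largest in the members, occurred in CPSF4, CSTF3 and CPSF6, against up to 9 sites in all protein-coding genes.

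The shape seen in CSTF2 recurred in other members. A triplet was defined, after it had been noticed in these genes, as 3 neighbouring sites of which the first 2 in the direction of transcription are 5 to 12 nt apart and the third follows 25 to 45 nt further on. There were 10 such triplets in 7 members, in CPSF3, CPSF4, CSTF1, CSTF2, CSTF3, CPSF6 and PCF11, and 34.2% of protein-coding genes that held 3 sites or more had at least 1. The close sites were 5 to 10 nt apart and the third followed after 26 to 36 nt. The mirror image, with the close sites downstream, occurred 4 times in CPSF4, CSTF3 and CPSF6, and in 30.3% of the same genes. Holding a triplet depends on the number of sites, with a median of 18.5 in the members against 7 in genes with a site. The gene shares were not matched for it, so nothing is read from the contrast. In CSTF3 and once in CPSF6, both forms shared sites, as in the run at 22754, 22761, 22792 and 22797 nt of CPSF6. The form with the close sites upstream made up 71.4% of the 14 triplets of the members (95% Wilson interval 45.4% to 88.3%) and 54.9% in all protein-coding genes, where 3096 had the close sites upstream and 2539 downstream. The interval includes the background share. Triplets can share sites or a gene and so are not independent. Intervals for the share of the upstream form, here and in the lists below, are therefore too narrow. All 3 CstF genes carried the upstream form. With 1 site per running number of the list, 7 upstream and 1 downstream triplets remained in the members.

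**Figure D5:**
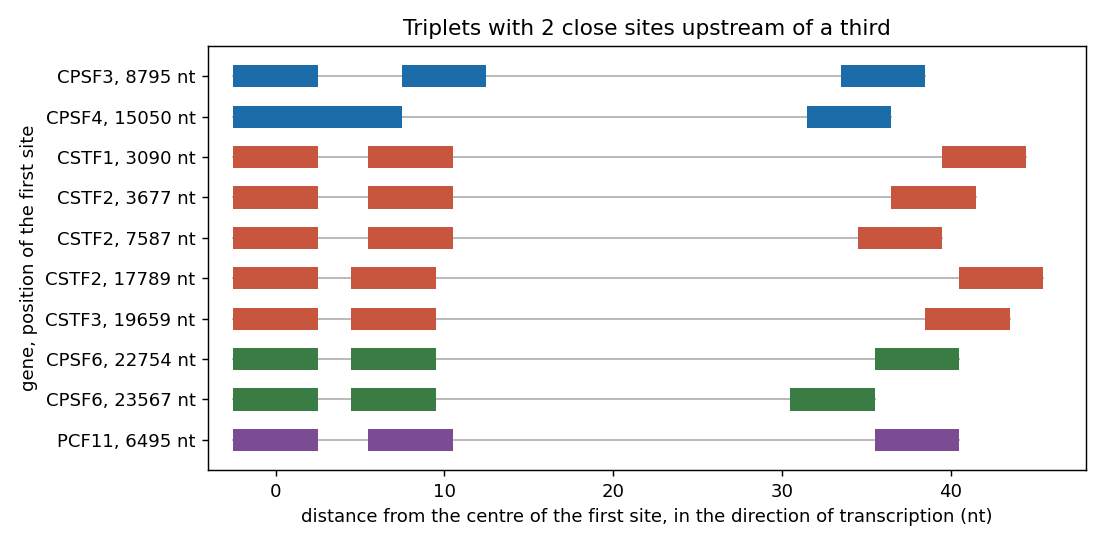
The 10 triplets with 2 close sites upstream, aligned on the centre of the first site; boxes are the 5 nt sites to scale, grey lines join the sites of a triplet, and labels give the gene and the distance of the first site from the gene start. The second site lay 5 to 10 nt from the first, and the third 26 to 36 nt beyond the second.

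The other factors of 3′ end formation were counted in the same way. Of 14 further genes of the machinery, 10 held sites, with a median of 6.5 over the 14 genes and a pooled density of 0.284 sites per kb against 0.561 in the members. PAPOLA, the poly(A) polymerase, had 33 sites, CPSF7, a relative of CPSF6 in CFIm, 26, and WDR33 and RBBP6, which recognise the poly(A) signal and promote cleavage respectively, 24 each. SYMPK, a scaffold, had 14. FIP1L1, a CPSF subunit that binds the polymerase, had 0 sites on 83.2 kb, as did CLP1, CSTF2T and CPSF4L. Of 9 genes for related 3′ end and termination factors, 7 held sites. SCAF4 had 56 and SCAF8 41; both encode proteins that prevent early termination. XRN2, the exonuclease of termination, had 42, whereas LSM10 and LSM11, proteins of the U7 particle for histone transcripts, had 0. A count of 0 does not separate absent binding from RNA too scarce to yield reproducible sites.

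Members and their relatives were set side by side. CSTF2 had 12 sites and CSTF2T, a paralogue known to lack introns, had 0 on 4.11 kb. CPSF4 had 29 sites and its relative CPSF4L 0 on 21.7 kb. The strand of CPSF4L was not tabled, so its 0 means no sites or equal numbers on both strands. CPSF6 had 51 sites, or 1.47 per kb, and CPSF7 26, or 0.954 per kb. CPSF3 had 18 sites and INTS11, its counterpart in the Integrator complex, 16 on 13.1 kb. CPSF2 had 8 sites and INTS9, its Integrator counterpart, 11 on 122 kb. Reads from near-identical copies can be lost or split. How alike these genes are in sequence was not examined, so whether this affected any of their counts is not known.

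Lists of other RNA processing genes were counted for comparison. Of 18 genes of the U2 snRNP and branch point recognition, 16 held sites with a median of 10.5 over the 18, and of 10 genes of nonsense-mediated decay, 9 did with a median of 21.0, against 18.5 in the members. By pooled density the order was reversed. The U2 snRNP genes had 0.928 sites per kb and the decay genes 0.292, against 0.561 in the members. Partners at 25 to 45 nt were found for 37.7% of the U2 snRNP gene sites (95% Wilson interval 33.1% to 42.6%) and 33.2% of the decay gene sites (27.3% to 39.6%), intervals that overlap that of the members. The upstream form made up 37.9% of the triplets in the U2 snRNP genes (22.7% to 56.0%), where 11 had the close sites upstream and 18 downstream. That interval and the one of the members overlap as well. The other lists of RNA processing genes had more upstream than downstream triplets, as the members did. The decay genes had 6 upstream and 3 downstream, and the further genes of the machinery 6 and 4. The related 3′ end and termination factors had 8 and 2. The upstream form was therefore not particular to the members. The last 10% of the gene held 6.33% of the U2 snRNP gene sites and 15.9% of the decay gene sites. No difference between these lists was tested.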

How the data were processed

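The deposited file is a list of SF3B1 sites merged over replicates. Per the file headers, each site spans 5 nt and was found in every replicate of at least 1 condition. The deposited score column is 0 in every row. The submitters' processing notes name FastQC 0.11.8, STAR 2.7.3a and 2.6.1b, UMI-tools 1.0.0, bedtools 2.27.1 and the builds GRCh38.p10 and GRCh38.p12; the site caller is not given in the sources used here. Keeping only reproducible sites can remove those in rare RNA.

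Positions were converted to 1-based coordinates and compared with RefSeq gene spans of GRCh38.p14. Strands and the printed sequence came from the RefSeq promoter table, which matched 9 of 10 members. Genes without a tabled strand took the strand with more sites, and equal numbers on both strands counted as 0. Among the genes named with 0 sites, CPSF4L, HBG1, HBG2, HBE1, HBZ, MS4A1, CD79B and CD5 had no tabled strand. Their 0 means no sites or equal numbers on both strands. A site counted in every gene whose span held its centre and whose strand it lay on. All members were named, ordered by complex. Besides the marker genes counted in the text, 2 genes of the original marker lists are not reported here. The members and lists were chosen with earlier results of these data known. Shares have 95% Wilson intervals, and no test over samples was possible. On simulated sites in 500 protein-coding genes, numbers, pairs and triplets were recovered in all 500, and the counts of 100 real genes equalled a direct search. Alternatives were merged abutting sites, 1 site per running number, the 5′ end as position, both strands, other windows and omission of single genes. The planned position relative to splice sites was not made, since no exon annotation was used here. Software was Python 3.11.15 with SciPy 1.17.1, pandas 2.3.3, NumPy 2.4.6 and matplotlib 3.10.9.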

Additional observations from a re-analysis of the deposited data

How the results depend on the processing

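Of 31 recalculations of 8 results, 27 stayed within 1.5 times the count or density, or within the Wilson interval of the share, and 4 moved. Part of the 27 only left out 1 gene from a share, and the limits are wide. A fall from 10 to 7 members, when at least 10 sites were required, also stayed within them. The tally is therefore not a measure of robustness. A partner 31 to 41 nt away in place of 25 to 45 nt lowered the share of member sites with a partner from 42.8% to 33.7%, since the window is narrower. The last 20% of the gene held 24.1% of the member sites and the last 5% held 4.28%, since those windows differ in width. Without CSTF3, 0 member sites lay in the first 100 nt, against 4 with it. The number of member sites was 184 with merged abutting sites, 173 with 1 site per running number, 187 with the 5′ end as position or with both strands, and 158 without sites in another protein-coding gene. Leaving out each gene in turn gave shares in the last 10% between 8.23% (without CPSF4) and 12.5% (without CPSF6). Triplets with the close sites upstream numbered 9 with merged abutting sites and 7 without CSTF2. The alternatives for triplets, for the first 100 nt, for the total without CPSF6 and for the bins of the gene without it were chosen after seeing the data. No paired analysis was possible because replicates were merged in the deposited list, which also prevented leaving out single replicates.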
